A study of Homo sapiens with 4 samples.

Results

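The 48 genes described here encode proteins of mitosis and its spindle: the mitotic cyclins with CDK1 and its activators, the mitotic kinases, the chromosomal passenger complex, the spindle checkpoint, kinetochore proteins, kinesins and other spindle proteins, cytokinesis factors, TOP2A and MKI67, and the transcription factors FOXM1 and MYBL2. They were taken by name from a list drawn up with earlier results of these data known, no measured value entered the rule, and each was found among the 37247 gene rows of the table. RNA was sequenced from AMO1, a human plasmacytoma (multiple myeloma) cell line labelled as wild type, grown in culture for all samples. One group received the vehicle DMSO at 0.10% and the other periplocin, a cardiac glycoside of plant origin, at 0.2 mM, both for 6 h. That concentration is printed as labelled; it is high for a cardiac glycoside, and its unit could not be checked. Each group held 2 libraries, and whether these were grown as separate cultures is not labelled. All p-values therefore reflect the spread between those libraries, which may be technical. The test used, limma, draws each gene's spread toward that of genes at similar levels. Cardiac glycosides block the Na/K-ATPase, the pump that keeps sodium low and potassium high in the cell, and the study's title sets this block beside the expression of c-Myc.

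Mitosis is driven by cyclin B bound to CDK1. CDC25 phosphatases remove the inhibitory phosphates of CDK1, and WEE1 and PKMYT1 put them on. Polo-like and aurora kinases then build the spindle, the checkpoint holds CDC20 until every kinetochore is attached, and the anaphase-promoting complex with CDC20 ends the phase by having securin and cyclin B destroyed. Most of these genes are transcribed late in the cell cycle: the DREAM complex keeps them silent in resting cells, and MYBL2 and FOXM1, which share the MuvB core with it, switch them on in G2 and M.

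Values were TPM, transcript levels scaled to transcript length and to a fixed total per library, so that levels of different genes can be set side by side. TPM keep no sequencing depth, so no counting error can be given. Of all rows, between 12357 and 12915 reached 1 TPM in a library, with fewer in the periplocin libraries. All 9 plasma cell markers looked for, SDC1 and IRF4 among them, reached 1 TPM, and their summed level was 9863 to 10250 TPM in the DMSO and 10130 to 10560 TPM in the periplocin libraries. JCHAIN and SDC1 carry most of that sum; among the others IRF4 was at 126 and 133 TPM with DMSO and at 82.2 and 87.8 TPM with periplocin, PRDM1 at 55.3 and 59.0 against 29.4 and 27.7 TPM, and SLAMF7 at 47.8 and 49.9 against 160.0 and 139 TPM. Summed levels of the B cell markers were 2.07 to 2.32 TPM with DMSO and 0.859 to 1.64 TPM with periplocin (2 of 5 reached 1 TPM in any library). Those of T and NK cells were 4.86 to 8.06 and 4.02 to 4.65 TPM (2 of 6, CD3D at 0), those of myeloid cells 0.704 to 1.32 and 1.70 to 1.74 TPM (1 of 5, S100A8 at 0), and those of fibroblasts 1.54 to 3.26 and 2.00 to 2.46 TPM (1 of 4). Any part of these markers in the results was not tested. In a bulk sample a change in the share of cells in G2 or M and a change of RNA per cell cannot be told apart.

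Promoters are shown for CKS1B and CKS2, the most abundant pair in the cyclin and CDK1 group, of which CKS1B had the largest rise of all 48 genes, and for CDC25B, which had the largest fall. Each is the run of 250 bases just before an annotated start, from RefSeq on GRCh38.p14, plus strand. Capitals mark the cell cycle genes homology region (CHR, TTTGAA on either strand, so also TTCAAA), the element that LIN54 of MuvB contacts, and the CCAAT box (on either strand, so also ATTGG), which NF-Y binds.
CKS1B, chr1:154974431-154974680: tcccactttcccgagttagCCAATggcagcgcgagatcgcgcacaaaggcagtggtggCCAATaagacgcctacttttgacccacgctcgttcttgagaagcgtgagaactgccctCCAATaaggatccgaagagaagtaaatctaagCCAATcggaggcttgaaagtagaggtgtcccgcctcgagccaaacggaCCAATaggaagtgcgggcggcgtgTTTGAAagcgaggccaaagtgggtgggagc
CKS2, chr9:89310945-89311194: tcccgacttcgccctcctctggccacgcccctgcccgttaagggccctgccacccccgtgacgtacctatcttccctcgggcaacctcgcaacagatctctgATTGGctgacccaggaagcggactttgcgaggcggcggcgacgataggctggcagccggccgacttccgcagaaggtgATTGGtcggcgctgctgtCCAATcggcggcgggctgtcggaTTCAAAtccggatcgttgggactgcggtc
CDC25B, chr20:3796060-3796309: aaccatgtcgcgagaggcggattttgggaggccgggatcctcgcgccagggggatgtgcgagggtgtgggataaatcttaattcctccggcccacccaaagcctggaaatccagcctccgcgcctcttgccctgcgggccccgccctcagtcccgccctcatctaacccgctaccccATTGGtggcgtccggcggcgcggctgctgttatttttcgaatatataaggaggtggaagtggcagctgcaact

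The CKS1B and CKS2 promoters carried 1 CHR each, at 30 and 29 bases before the start, and 5 and 3 CCAAT boxes, the nearest at 54 and 52 bases. The CDC25B window had neither TTTGAA nor TTCAAA, the only CHR spellings searched, and had 1 CCAAT box, at 73 bases. It is 1 of 4 windows annotated for that gene and was picked because its motif lay nearest to a start. That distance therefore follows from the choice. The window lies inside the gene span, 3786772 to 3806121, and so precedes an internal start. Of the 48 genes, 40 had an entry in the promoter table, whose windows run from 250 bases before the start to 50 after it. A CHR stood in a window of 28 of these 40 genes (70.0%), against 18.2% of all 27305 genes in the table. A CCAAT box stood in 33 of 40 (82.5%), against 39.7%, and both stood in 24 of 40 (60.0%), against 7.26%. Among genes with 1 window, the CHR shares were 75.8% of 33 members and 16.0% of all. The motifs were found on both sides of the response: a CHR in 8 of the 10 genes that rose, 4 of the 6 that fell and 16 of the 24 others with an entry, and a CCAAT box in 7 of 10, 6 of 6 and 20 of 24. A match is a description of the letters and not a measured binding site.

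All 48 genes were well above the filter for testing (1 TPM in at least 2 libraries): each was at 5 TPM or more in every library, with means over the 4 libraries between 11.1 TPM (CDC25C) and 320 TPM (MYBL2). After 6 h of periplocin 10 of them were higher and 6 lower, and 32 did not pass the test (limma on log2(TPM + 1), Benjamini-Hochberg adjusted p under 0.05 over 12947 tested genes; a value after ± beside a log2 fold change is its standard error). That is 20.8% higher and 12.5% lower, where 10.4% of all tested genes were higher and 18.9% lower. The median log2 fold change was 0.20 for the 48 genes and -0.14 for all tested genes. Without a test, both periplocin libraries lay above both DMSO libraries for 27 members (56.2%, against 25.4% of tested genes) and below them for 10 (20.8%, against 43.4%), and 11 overlapped. The summed level of the 48 genes was 3963 and 4097 TPM with DMSO and 4683 and 4763 TPM with periplocin, or 0.396% and 0.41% against 0.468% and 0.476% of all TPM.

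**Figure D1:**
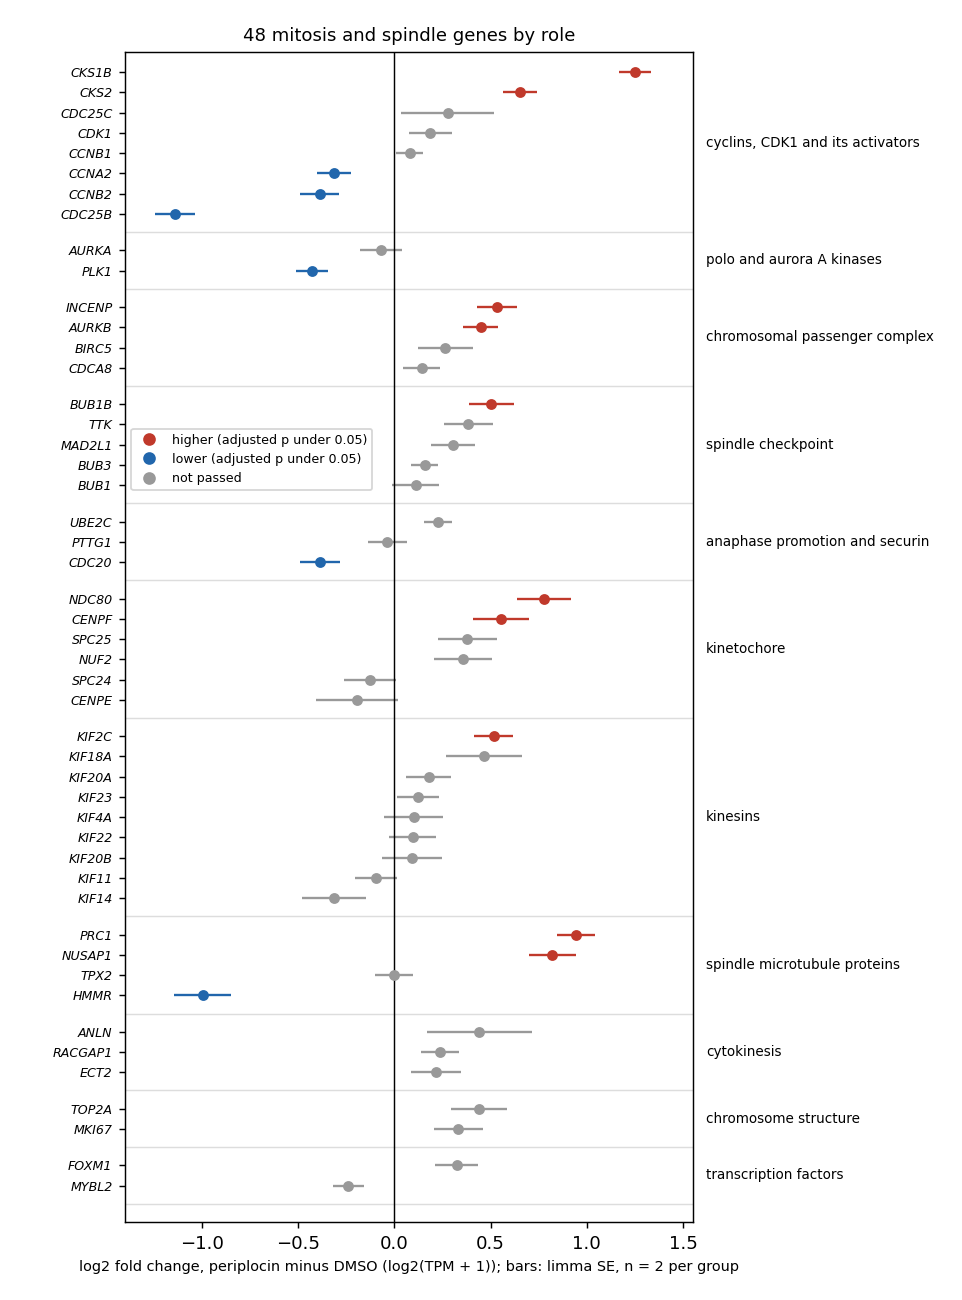
Log2 fold change of each of the 48 genes (x axis, periplocin minus DMSO, on log2(TPM + 1)), grouped by role; bars are limma standard errors from 2 libraries per group, red and blue mark genes that passed upwards (10) and downwards (6), grey those that did not (32). CKS1B, at 1.25, and CDC25B, at -1.14, are the ends of the range, and both belong to the cyclin and CDK1 group.

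These counts changed with the scaling of the libraries. With size factors that put the median of all tested genes at -0.01, 20 members were higher and 2 lower (41.7% and 4.17%, against 15.8% and 13.3% of all tested genes), and the members' median was 0.35. Centring on the median gave 20 and 2 as well (against 16.4% and 12.0%), and quantile normalization gave 13 and 7 (against 13.6% each way). All 10 rises passed under these 3 scalings. Of the 6 falls, CDC25B and HMMR passed under all of them, whereas PLK1, CCNB2, CDC20 and CCNA2 passed with quantile normalization only. The genes higher with size factors but not as deposited were BUB3, FOXM1, NUF2, TOP2A, SPC25, RACGAP1, MKI67, UBE2C, TTK and MAD2L1.

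**Figure D2:**
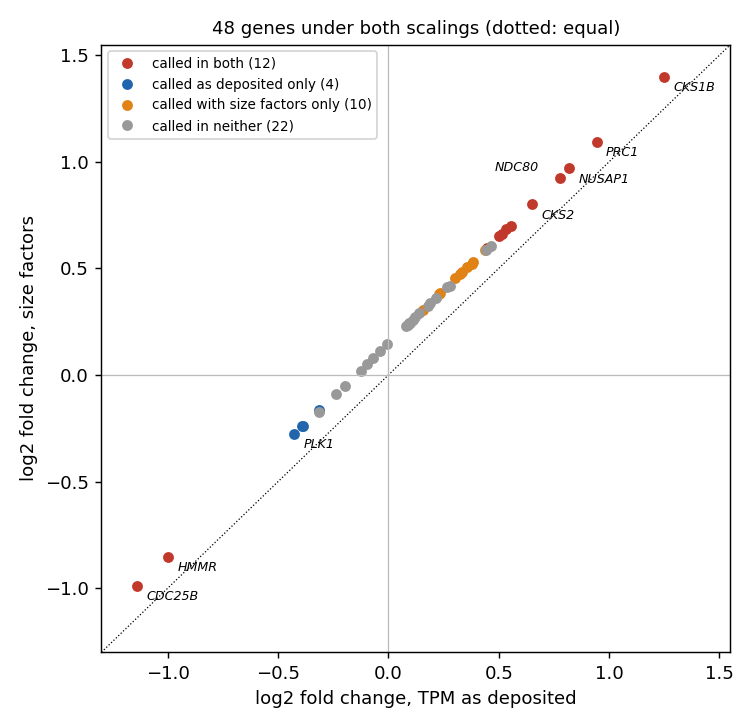
Log2 fold change of the 48 genes with TPM as deposited (x axis) and after scaling by size factors (y axis); the dotted line is equality and colours show where a gene passed limma. All points lie above the line, 12 genes passed under both scalings, 4 as deposited only and 10 with size factors only.

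With 2 libraries per group, leaving out 1 library leaves an arm with a single library, which is assumed to vary like the other group, and 1 residual degree of freedom. Leaving out either periplocin library kept 8 of the 16 calls, 6 higher and 2 lower, where without periplocin replicate 1 the shares of all tested genes were 4.03% and 8.82%, and without periplocin replicate 2 they were 3.69% and 8.32%. Of the members, CKS1B, CKS2, PRC1, NUSAP1, CDC25B and HMMR passed in both cases, and CENPF, KIF2C, PLK1, CCNB2, CDC20 and CCNA2 in neither. AURKB and INCENP did not pass without periplocin replicate 1 but did without replicate 2, and NDC80 and BUB1B the reverse. With no filter on low levels 5 members were higher and 3 lower (against 2.89% and 4.83% of all genes then tested), and with no mean-variance trend 5 and 2 (against 6.77% and 14.9%). Leaving out DMSO replicate 1 or DMSO replicate 2 left no gene of the 12947 past limma's adjusted threshold, with 3925 and 4156 at an unadjusted p under 0.05, while all 16 called members kept their sign. Those signs could not turn, because the DMSO and periplocin libraries of these 16 genes do not overlap. An exact permutation test of 2 against 2 libraries cannot go below p = 0.333, two-sided.

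In the group of cyclins, CDK1 and its activators, 2 of 8 genes rose and 3 fell. These are 25.0% and 37.5%, beside 10.4% and 18.9% of all tested genes. No role was tested as a set. The rises were those of both CKS genes, small proteins that bind the cyclin-dependent kinase and help it to phosphorylate its substrates; CKS1B also serves the ubiquitin ligase that destroys p27. CKS1B (ENSG00000173207.12, chromosome 1, 154974653 to 154979249, plus strand) stood at 142 and 157 TPM with DMSO and at 349.8 and 361 TPM with periplocin. The levels with periplocin were more than the sum of both DMSO libraries, the largest difference in means of any member. The means were 149 ± 10.7 and 355 ± 7.92 TPM (SD, n = 2), a log2 fold change of 1.25 ± 0.08 (limma, adjusted p = 0.00218). CKS2 (ENSG00000123975.4, chromosome 9, 89311198 to 89316703, plus strand) stood at 201 and 203 TPM with DMSO and at 297 and 339.7 TPM with periplocin. Its groups did not overlap, and its log2 fold change was 0.65 ± 0.09 (limma, adjusted p = 0.0063). The 2 proteins are close relatives, and the sources used here do not state how reads shared by such copies were assigned; the 7 pseudogene rows of CKS1B were at 0 in all libraries.

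CDC25B, the phosphatase that starts CDK1 activation at the centrosome, fell the most of all 48. Its level (ENSG00000101224.17, chromosome 20, 3786772 to 3806121, plus strand) was 140.2 and 138 TPM with DMSO and 67.5 and 58.1 TPM with periplocin. Both periplocin libraries were far below both DMSO libraries, and the log2 fold change was -1.14 ± 0.10 (limma, adjusted p = 0.00374; -0.99 with size factors). CCNB2, a B-type cyclin, was at 62.1 and 67.0 TPM with DMSO and at 48.3 and 49.7 TPM with periplocin. Cyclin A2 (CCNA2), which serves S phase as well as entry into mitosis, was at 125 and 133 TPM with DMSO and at 100.4 and 107 TPM with periplocin. Both cyclins were lower without overlap, with log2 fold changes of -0.39 and -0.31 (limma, adjusted p = 0.0336 and 0.0408); with size factors these were -0.24 and -0.16 and did not pass (adjusted p = 0.11 and 0.186). The remaining members of the group did not pass. CCNB1, the main mitotic cyclin, was at 218 and 227 TPM with DMSO and at 236 and 234 TPM with periplocin, a log2 fold change of 0.08 ± 0.07 (limma, adjusted p = 0.436). CDK1 itself was at 91.8 and 102 TPM against 102.5 and 119 TPM, groups that lie next to each other (log2 fold change 0.19, limma, adjusted p = 0.243). CDC25C, another CDK1-activating phosphatase, was at 10.5 and 9.20 TPM against 9.61 and 15.2 TPM and overlapped between the groups.

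**Figure D3:**
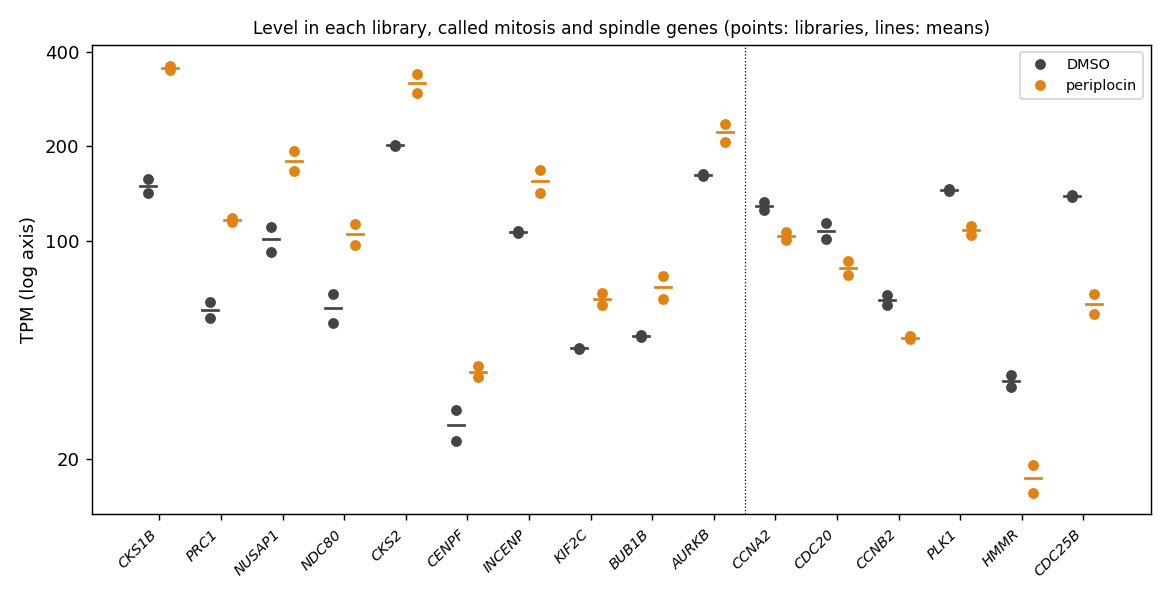
Level of the 16 genes that passed limma in each of the 4 libraries (y axis, TPM, log scale; points are libraries and short lines the group means, n = 2), the 10 higher genes left of the dotted line and the 6 lower ones right of it. In every one of the 16 the DMSO and periplocin libraries do not overlap. The genes were selected by limma on these same libraries, so this adds no support to the calls. Among all tested genes the periplocin libraries lay above both DMSO libraries in 25.4% and below them in 43.4%. The means differ most, as a log2 fold change, for CKS1B, CDC25B and HMMR.

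Of the 2 kinases that start centrosome separation and spindle assembly, PLK1 fell and AURKA did not pass. PLK1 (chromosome 16, 23677656 to 23690367, plus strand) was at 144 and 146 TPM with DMSO and at 111 and 104 TPM with periplocin. The groups were apart by several times the spread within them, a log2 fold change of -0.43 ± 0.08 (limma, adjusted p = 0.0158); with size factors it was -0.28 and did not pass (adjusted p = 0.0561). AURKA, which activates PLK1, was at 60.2 and 68.2 TPM with DMSO and at 63.0 and 58.9 TPM with periplocin, so that the groups overlapped. Its log2 fold change of -0.07 (limma, adjusted p = 0.65) was 0.08 with size factors.

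The chromosomal passenger complex, which corrects faulty attachments at centromeres and later works at the midzone, had 2 of its 4 genes higher. They were the kinase AURKB and its scaffold and activator INCENP, 50.0% of the role beside 10.4% of all tested genes. AURKB (chromosome 17, 8204733 to 8210600, minus strand) was at 163 and 160.4 TPM with DMSO and at 236 and 207 TPM with periplocin. INCENP (chromosome 11, 62123973 to 62153163, plus strand) was at 106 and 107 TPM with DMSO and at 168 and 142 TPM with periplocin. In both genes periplocin replicate 1 was the higher and the DMSO libraries were almost equal. The log2 fold changes were 0.45 ± 0.09 for AURKB and 0.53 ± 0.10 for INCENP (limma, adjusted p = 0.0175 and 0.0154). Without periplocin replicate 1 they were smaller, at 0.35 and 0.41. BIRC5 (survivin) and CDCA8 (borealin), which bring the complex to the centromere, did not pass: their log2 fold changes were 0.26 and 0.14 (limma, adjusted p = 0.211 and 0.31).

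In the spindle checkpoint 1 of 5 genes rose, where 10.4% of all tested genes were higher and 18.9% lower. BUB1B, which encodes BUBR1, a part of the complex that holds CDC20, was at 50.0 and 49.3 TPM with DMSO and at 65.0 and 77.0 TPM with periplocin (chromosome 15, 40161023 to 40221136, plus strand). The periplocin libraries were both above the nearly equal DMSO libraries, a log2 fold change of 0.50 ± 0.12 (limma, adjusted p = 0.0249). BUB3, the most abundant checkpoint gene and the partner of BUBR1 and BUB1, was at 189 and 196 TPM against 213 and 215 TPM. That gap did not pass as deposited (log2 fold change 0.16, limma, adjusted p = 0.153) and did with size factors (0.31, adjusted p = 0.026). TTK, the kinase MPS1, and MAD2L1, the other CDC20 inhibitor, had log2 fold changes of 0.38 and 0.30 (limma, adjusted p = 0.0685 and 0.0935), and BUB1 one of 0.11 (adjusted p = 0.523).

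CDC20, the target of this checkpoint and the activator of the anaphase-promoting complex, fell. It was at 100.8 and 114 TPM with DMSO and at 85.8 and 77.8 TPM with periplocin (chromosome 1, 43358955 to 43363203, plus strand). The groups did not overlap, with a log2 fold change of -0.39 ± 0.10 (limma, adjusted p = 0.0391), but with size factors it was -0.24 and did not pass (adjusted p = 0.135). Nor did CDC20 pass once the trend of fold change with GC content and transcript length was removed (adjusted p = 0.0862). UBE2C, the ubiquitin-conjugating enzyme of the complex, was at 271 and 264 TPM against 324 and 304 TPM, a log2 fold change of 0.23 (limma, adjusted p = 0.0625). Securin (PTTG1), which holds separase inactive until anaphase, was at 84.0 and 75.4 TPM against 74.8 and 80.3 TPM and overlapped.

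At the kinetochore 2 of 6 genes rose (33.3%, beside 10.4% of all tested genes). NDC80, the subunit that grips the microtubule, was at 54.5 and 67.6 TPM with DMSO and at 96.6 and 113 TPM with periplocin (chromosome 18, 2571511 to 2616635, plus strand). The gap between the groups was wider than the spread within either: log2 fold change 0.78 ± 0.14 (limma, adjusted p = 0.0128). CENPF, a large protein of the outer kinetochore that rises in G2, was at 22.9 and 28.7 TPM against 36.6 and 39.6 TPM, a log2 fold change of 0.55 ± 0.15 (limma, adjusted p = 0.0372; chromosome 1, 214603195 to 214664588, plus strand). The other 3 subunits of the NDC80 complex did not pass. NUF2, the direct partner of NDC80, was at 72.1 and 83.1 TPM against 86.7 and 114 TPM (log2 fold change 0.36, limma, adjusted p = 0.127). SPC25 had a log2 fold change of 0.38 and SPC24 one of -0.12 (limma, adjusted p = 0.111 and 0.517). CENPE, the kinetochore motor that moves chromosomes to the equator, had one of -0.20 and overlapped (adjusted p = 0.524).

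Of the 9 kinesins, 1 rose (11.1%, close to the 10.4% of all tested genes). KIF2C, which does not walk but takes microtubule ends apart and so releases wrong attachments, was at 45.3 and 45.1 TPM with DMSO and at 62.2 and 67.9 TPM with periplocin (chromosome 1, 44739818 to 44767767, plus strand). The DMSO libraries were nearly identical and both periplocin libraries lay above them: log2 fold change 0.51 ± 0.10 (limma, adjusted p = 0.0163). The most abundant kinesin, KIF22, which pushes chromosome arms, was at 107 and 85.5 TPM with DMSO and at 101 and 103 TPM with periplocin and overlapped (log2 fold change 0.09, limma, adjusted p = 0.595). The other 7 ranged from KIF14, a cytokinesis motor at -0.31 (adjusted p = 0.204), to KIF18A, which damps chromosome oscillation, at 0.47 (adjusted p = 0.125), both from limma. Between them were KIF11, the motor that pushes the poles apart, at -0.10, KIF20B, which acts late in cytokinesis, at 0.09, the chromosome-bound KIF4A at 0.10, KIF23 of the central spindle at 0.12 and KIF20A, which carries the passenger complex to the midzone, at 0.18. None of these 7 passed limma as deposited, where the kinesins gave 1 higher gene and 0 lower at an unadjusted p under 0.05. Of all 12947 tested genes, 5585 were under that unadjusted limit. KIF18A passed with quantile normalization (0.68, adjusted p = 0.0469), and KIF14 with the trend on GC content and length removed (-0.48, adjusted p = 0.0463).

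Proteins that bind spindle microtubules moved in opposite directions: 2 of 4 genes rose and 1 fell. The shares were 50.0% and 25.0%, beside 10.4% and 18.9% of all tested genes. PRC1, which crosslinks antiparallel microtubules at the midzone, was at 56.5 and 63.8 TPM with DMSO and at 118 and 115 TPM with periplocin (ENSG00000198901.13, chromosome 15, 90966038 to 90995629, minus strand). NUSAP1, which bundles microtubules near chromosomes, was at 92.2 and 111 TPM with DMSO and at 166 and 193 TPM with periplocin (ENSG00000137804.12, chromosome 15, 41332694 to 41381050, plus strand). In both genes the lowest periplocin library was far above the highest DMSO library. The log2 fold changes were 0.95 ± 0.10 for PRC1 and 0.82 ± 0.12 for NUSAP1 (limma, adjusted p = 0.00408 and 0.00784). PRC1 overlaps a protein-coding row without a symbol on the same strand, ENSG00000284946, which was at 7.26 and 7.93 TPM with DMSO and at 14.6 and 13.7 TPM with periplocin, so reads of the pair may be shared. HMMR, a microtubule-associated protein of spindle poles, was at 34.1 and 37.1 TPM with DMSO and at 19.2 and 15.6 TPM with periplocin (ENSG00000072571.19, chromosome 5, 163460203 to 163491945, plus strand). Both periplocin libraries were clearly lower, a log2 fold change of -0.997 ± 0.15 (limma, adjusted p = 0.00778), and it also passed with size factors at -0.85 (adjusted p = 0.0119). TPX2, which activates AURKA on the spindle, was at 80.3 and 87.8 TPM against 80.4 and 87.2 TPM, nearly the same pair of values.

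In cytokinesis no gene of 3 passed limma, where 10.4% of all tested genes were higher and 18.9% lower. None had an unadjusted p under 0.05, which 5585 of all 12947 tested genes had. RACGAP1, the centralspindlin subunit paired with KIF23, was at 81.7 and 83.1 TPM with DMSO and at 91.1 and 104 TPM with periplocin (log2 fold change 0.24, limma, adjusted p = 0.124), and passed with size factors (0.39, adjusted p = 0.032). ECT2, which RACGAP1 recruits to the midzone, had a log2 fold change of 0.22 (limma, adjusted p = 0.247). ANLN (anillin), the scaffold of the contractile ring, was at 16.2 and 29.9 TPM with DMSO and at 29.5 and 31.1 TPM with periplocin. Its DMSO libraries differed 1.85-fold, the widest spread within DMSO of any member, and the groups overlapped.

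TOP2A and MKI67, which untangle and coat mitotic chromosomes, did not pass limma. Both had an unadjusted p under 0.05, as did 5585 of all 12947 tested genes. TOP2A was at 93.0 and 111 TPM with DMSO and at 122 and 156 TPM with periplocin, apart but with a wide spread (log2 fold change 0.44 ± 0.15, limma, adjusted p = 0.0697). MKI67, the Ki-67 proliferation marker, was at 75.1 and 62.2 TPM against 92.2 and 80.8 TPM (log2 fold change 0.33, limma, adjusted p = 0.10). Both passed with size factors (adjusted p = 0.0283 and 0.0439).

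The 2 transcription factors of this programme did not pass limma either. An unadjusted p under 0.05 was reached by 1 in each direction, and by 5585 of all 12947 tested genes. MYBL2 (B-Myb), which binds MuvB in S phase and had the highest mean level of all 48 genes, was at 358 and 334 TPM with DMSO and at 306 and 281 TPM with periplocin. The groups did not overlap, with a log2 fold change of -0.24 (limma, adjusted p = 0.0708) that was -0.09 with size factors (adjusted p = 0.476) and passed with quantile normalization (-0.28, adjusted p = 0.0474). FOXM1, which joins the complex in G2, was at 58.5 and 56.3 TPM against 78.0 and 66.7 TPM, a log2 fold change of 0.32 (limma, adjusted p = 0.0751) that passed with size factors (0.47, adjusted p = 0.0301).

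Other genes of mitosis, on 5 lists drawn up by function, were read the same way. Of their 100 tested genes 16 were higher and 13 lower, beside 10.4% and 18.9% of all tested genes, with a median log2 fold change of 0.06. With size factors 30 were higher and 9 lower, beside 15.8% and 13.3%. In the list of mitotic entry control 5 of 10 genes were higher and 1 lower, with a median of 0.44. WEE1, the kinase that inhibits CDK1, was at 33.9 and 41.8 TPM with DMSO and at 87.5 and 87.9 TPM with periplocin (log2 fold change 1.20, limma, adjusted p = 0.00408). CDKN1A, the cyclin-dependent kinase inhibitor p21, was at 229 and 209 TPM against 501 and 466 TPM (1.14, adjusted p = 0.00245 from limma). CDC25A, the related phosphatase that acts mainly at the start of S phase, was at 48.8 and 51.8 TPM against 92.5 and 95.3 TPM (0.89, adjusted p = 0.00408 from limma), opposite in direction to CDC25B. The list's other higher genes were PKMYT1, at 0.43, and ARPP19, an inhibitor of the PP2A phosphatase that opposes CDK1, at 0.53. BORA, with which AURKA activates PLK1, was at 23.1 and 30.2 TPM against 16.2 and 17.0 TPM (-0.64, limma, adjusted p = 0.0355) and did not pass with size factors (adjusted p = 0.0658).

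In the list of spindle and cytokinesis genes 2 of 28 were higher and 5 lower (7.14% and 17.9%, beside 10.4% and 18.9% of all tested genes). With size factors 5 were higher and 4 lower, beside 15.8% and 13.3% of all tested genes. CEP55, which acts at abscission, was at 30.7 and 34.1 TPM with DMSO and at 12.9 and 12.5 TPM with periplocin (log2 fold change -1.28, limma, adjusted p = 0.00413). KNSTRN, a kinetochore and spindle protein, had a log2 fold change of -1.07 and PLK4, the kinase of centriole duplication, one of 1.10 (limma, adjusted p = 0.00396 and 0.00448). Among inner centromere and kinetochore genes 5 of 25 were higher and 3 lower. All 4 subunits of the MIS12 complex passed, MIS12 and PMF1 higher and NSL1 and DSN1 lower. MIS12 was at 17.7 and 23.1 TPM against 40.0 and 47.4 TPM, and NSL1 at 10.2 and 8.99 TPM against 3.86 and 4.79 TPM (log2 fold changes 1.07 and -0.997, limma, adjusted p = 0.00892 and 0.0192). PMF1 had a log2 fold change of 0.55 and DSN1 one of -0.64 (limma, adjusted p = 0.013 and 0.0221). CENPI, of the inner kinetochore, had a log2 fold change of -0.82 (limma, adjusted p = 0.0159).

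In the cohesin, condensin and separase list 2 of 20 genes were higher and 1 lower, and 9 and 0 with size factors. SMC4 of condensin was at 142 and 154 TPM with DMSO and at 258 and 293 TPM with periplocin (log2 fold change 0.89, limma, adjusted p = 0.00411). STAG2 of cohesin had a log2 fold change of 0.53 and separase (ESPL1) one of -0.49 (limma, adjusted p = 0.040 and 0.0314); separase did not pass with size factors (adjusted p = 0.0859). Of 17 genes of the anaphase-promoting complex and its regulators 2 were higher and 3 lower (11.8% and 17.6%, beside 10.4% and 18.9% of all tested genes), and with size factors 4 and 2. FBXO5 (EMI1), an inhibitor of the complex, was at 28.3 and 32.6 TPM against 56.5 and 61.8 TPM (log2 fold change 0.94, limma, adjusted p = 0.00585). FZR1 (CDH1), the activator that takes over from CDC20 at the end of mitosis, rose with a log2 fold change of 0.64, whereas the subunit ANAPC4 fell, with one of -0.65 (limma, adjusted p = 0.0214 and 0.0172).

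**Figure D4:**
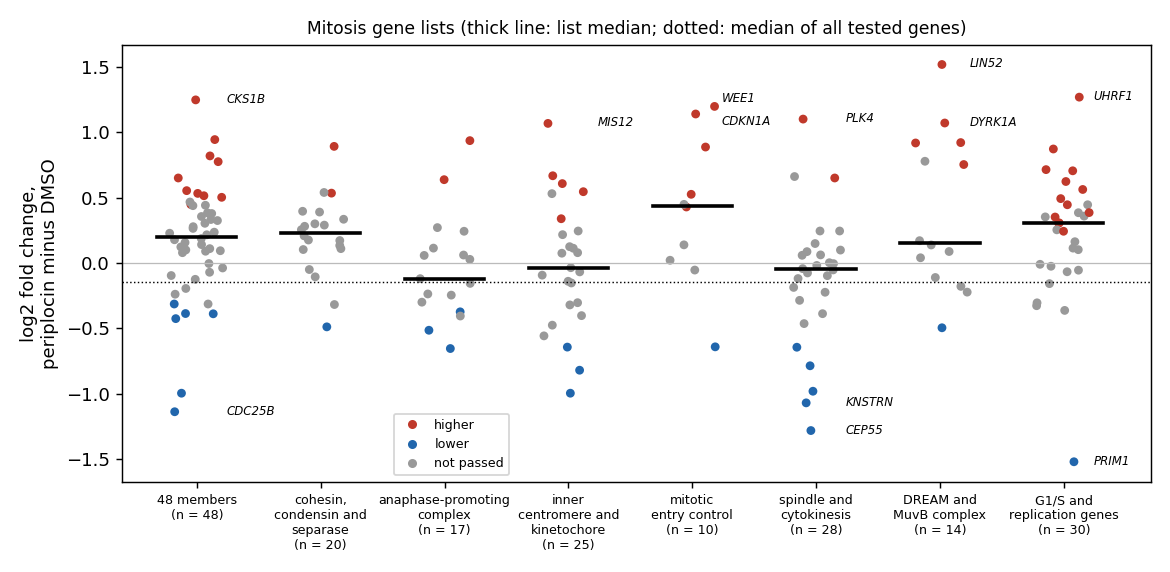
Log2 fold change (y axis, periplocin minus DMSO) of every tested gene in the 48-gene list, the 5 lists of other mitosis genes, the list of DREAM and MuvB genes with their associates and the G1/S list; red and blue points passed limma upwards and downwards, thick lines are list medians and the dotted line is the median of all tested genes, -0.14. List medians run from -0.12 for the anaphase-promoting complex to 0.44 for mitotic entry control, and CKS1B, CDC25B and the largest movers of the other lists are named.

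Among 14 genes of the DREAM and MuvB complexes and their associates 5 were higher and 1 lower. The shares were 35.7% and 7.14%, beside 10.4% and 18.9% of all tested genes. The higher genes were the MuvB subunits LIN52 and LIN54, the kinase DYRK1A and the repressors E2F7 and E2F8. DYRK1A, E2F7 and E2F8 are not subunits. RBL2 was the lower gene. LIN52, the MuvB subunit that DYRK1A phosphorylates to assemble DREAM, was at 12.0 and 10.2 TPM with DMSO and at 32.3 and 35.0 TPM with periplocin (log2 fold change 1.52, limma, adjusted p = 0.00389). DYRK1A was at 16.6 and 18.7 TPM against 38.5 and 37.8 TPM (1.07, limma, adjusted p = 0.00496), and E2F7, an E2F repressor, had a log2 fold change of 0.92 (limma, adjusted p = 0.0145). RBL2 (p130), the pocket protein of DREAM, had one of -0.50 (limma, adjusted p = 0.0486) and did not pass with size factors (adjusted p = 0.112). Of 30 G1/S and replication genes, 13 were higher and 1 lower, with a median log2 fold change of 0.31. That is 43.3% and 3.33%, beside 10.4% and 18.9% of all tested genes. The 48 mitosis genes had 10 higher and 6 lower and a median of 0.20. The difference between the lists was not tested. The replication clamp PCNA, at 0.87, and the epigenetic factor UHRF1, at 1.27, were higher, and the primase subunit PRIM1, at -1.52, was lower (limma, adjusted p = 0.00305, 0.00245 and 0.00448). MYC, the transcript named in the study's title, was at 578 and 631 TPM with DMSO and at 278 and 282 TPM with periplocin (log2 fold change -1.11, limma, adjusted p = 0.00218).

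Of the 48 genes, 18 overlap another row in the annotation and 11 of these a row that reached 1 TPM, such as CCNA2 with EXOSC9 on the opposite strand. The sources used here do not state whether strand was used in counting, so reads of such pairs may be shared. Pseudogene rows exist for 11 members, 22 in all, of which 17 were at 0 in every library and 1 reached 1 TPM. That row was UBE2CP5, at 9.41 and 10.3 TPM with DMSO and at 12.3 and 6.88 TPM with periplocin. Reads of UBE2C may be shared with it.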

How the data were processed

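RNA-seq of 4 AMO1 libraries, 2 with DMSO and 2 with periplocin, was analysed. The authors deposited 1 table of TPM values per gene; the submitters' processing notes name the build GRCh38. Which aligner, quantifier and annotation served is not stated in the sources used here. The column abbreviation PP was read as periplocin, the only treatment beside DMSO. Depth cannot be had from TPM, so no counting intervals are given.

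Names came from Ensembl IDs by a reference list of gene symbols, and by GENCODE 29 where that list had none. Positions came from GENCODE 29 on GRCh38, with 34620 of 37247 rows matched. Genes with at least 1 TPM in at least 2 libraries (12947) were fitted on log2(TPM + 1) with limma 3.58.1 (trend, two-sided) in R 4.3.3; Benjamini-Hochberg adjusted p under 0.05 was the threshold. Fold changes on this scale understate changes of low genes. Tables and motif counts were made in Python 3.11.15 with pandas 2.3.3. The fit was run on simulated data, with noise drawn from limma's own fitted variances and 200 genes changed. Such data cannot show errors from technical replicates, scaling or a shift of many genes. The 48 genes, the other lists and the tests were chosen with earlier results of these data known. Values are given for each gene that passed, the most abundant gene of each role, the up to 3 genes per other list with the largest changes among those that passed, CDKN1A and MYC; PKMYT1, ARPP19, BORA, RBL2, PMF1, DSN1, LIN54, E2F8 and the remaining members named were added after their values were seen. The 15 alternatives covered scaling, pseudocount, filter, variance prior, GC and length, a replicate block and each library left out. In the other lists 2 genes had no row under their symbol and 1 did not pass the filter; they were not analysed here.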

Additional observations from a re-analysis of the deposited data

How the results depend on the processing

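Members higher numbered 10 as deposited, 20 with size factors and with median centring, 5 with no filter, 5 with no mean-variance trend, and 0 to 6 with 1 library left out. Members lower numbered 6, then 2 with size factors, 2 with median centring, 3 with no filter, 2 with no trend, and 0 to 2 with 1 library left out. Of all tested genes, 1352 were higher: 2046 with size factors, 2117 with centring, 613 with no filter, 876 with no trend, 0 to 522 with 1 left out. Lower were 2443: 1553 with centring, 1026 with no filter, 0 to 1142 with 1 left out. The members' median of 0.20 became 0.35 with size factors, 0.37 with centring and 0.14 to 0.24 with 1 left out. The fits without a library hold fewer samples and the unfiltered fit tests more genes; the cause of the other moves was not tested. Whether libraries with the same replicate number form pairs is not labelled. Their deviations correlated at 0.0324 across 12947 genes, which does not settle it for the members. With the replicate number as a block 18 members were higher and 7 lower, and 1685 and 2876 of all genes. All 16 calls were kept under that block. Signs turned only in members that did not pass: AURKA (0.094 centring, 0.078 size factors, -0.16 to 0.018 with 1 left out), PTTG1 (0.13, 0.11, -0.12 to 0.038, and 0.009 with GC and length removed), SPC24 (0.04, 0.019, and 0.029 quantile), KIF11 (0.069, 0.052), TPX2 (0.16, 0.15, 0.000 quantile, -0.067 to 0.059), KIF20B (-0.11 with GC and length removed, -0.062 to 0.24), and, with 1 left out, CDC25C (-0.028 to 0.58), BUB1 (-0.032 to 0.25), CENPE (-0.42 to 0.029), KIF22 (-0.066 to 0.25) and KIF4A (-0.055 to 0.25). The 16 called members kept their sign in all 15 alternatives. With 1 library left out this was fixed in advance, because their DMSO and periplocin libraries do not overlap. Changes of pseudocount, filter, trend, variance prior or replicate block could not turn a sign either. Only the scalings and the removal of the GC and length trend could have done so.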

Other observations

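Across the 48 genes the log2 fold change had a Pearson r of -0.13 and a Spearman rho of -0.022 with log2 transcript length, and -0.16 and -0.089 with GC content, against 0.10 and 0.14, and -0.16 and -0.17, across 12406 tested genes with an annotated transcript. These are correlations across genes measured in the same 4 libraries, and genes are not independent replicates. With the trend on length and GC content removed, 15 of the 16 called members still passed limma, and UBE2C, KIF14 and FOXM1 passed as well.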
